A study of Canis lupus familiaris with 24 samples.

Results

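The interleukin-1 (IL-1) family of cytokines and the inflammatory caspases that activate them were followed in needle aspirates of lymph nodes from 4 dogs that had a B-cell lymphoma. The members were every probe whose RefSeq accession maps to dog IL1A, IL1B, IL1RN, IL18, IL33, CASP1, CASP4 or CASP12. On the array 9 probes met that rule and stood for 7 genes, among 27721 genes or unnamed transcripts tested, 719 of them with a gene symbol. IL18 and IL33 had 2 probes each. All 7 genes passed the filter, which asked that the 3 arrays of 1 group or more all lay well above background. CASP1 was not a separate entry. The RefSeq gene table gives it as a synonym of CASP4, so 1 probe carries both names and is called CASP4 here.

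The cytokines IL-1 alpha, IL-1 beta, IL-18 and IL-33 alert neighbouring cells to infection or damage. IL-1 beta and IL-18 are made as inactive precursors that caspase-1 cuts inside the inflammasome, a protein scaffold that assembles in activated myeloid cells. IL-1 alpha and IL-33 act as alarm signals when they leave damaged cells, and the antagonist encoded by IL1RN occupies the IL-1 receptor without signalling. In lymph nodes, macrophages, neutrophils, dendritic cells and stromal cells are among the known sources of these genes.

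Each dog was sampled by needle aspiration of a peripheral node in a drug-sensitive and in a drug-resistant phase of its disease, with 3 one-colour arrays for each of the 8 groups. Dog 1 was a male Shih Tzu of 10 years, dog 2 a male Doberman of 9 years, dog 3 a castrated male French Bulldog of 3 years and dog 4 a spayed female French Bulldog of 5 years. The labels name neither the drugs given nor the time between the phases, and they do not say whether the 3 arrays of a group came from separate aspirates. P-values within a dog therefore measure the spread between arrays, which may be technical, and each dog is 1 animal. An aspirate is a mixture of cells, so fewer cells of a type and less RNA per cell cannot be told apart.

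Levels are log2 of the processed spot signal minus the array's 75th percentile, so 0 is the signal of that percentile. They are compared between groups for 1 probe and not between genes. Arrays had a 75th percentile of 676.4 to 1117 signal units and 71% to 80.9% of spots well above background. The number of arrays limits the precision. The B-cell markers MS4A1 and CD40, which code for CD20 and a co-stimulatory receptor, were well above background on the arrays of every group, and neither was called in any dog. In dog 4 the 3 resistant arrays were on a slide of their own and scanned on a later day, so phase, slide and scan day cannot be told apart in that dog.

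**Figure D1:**
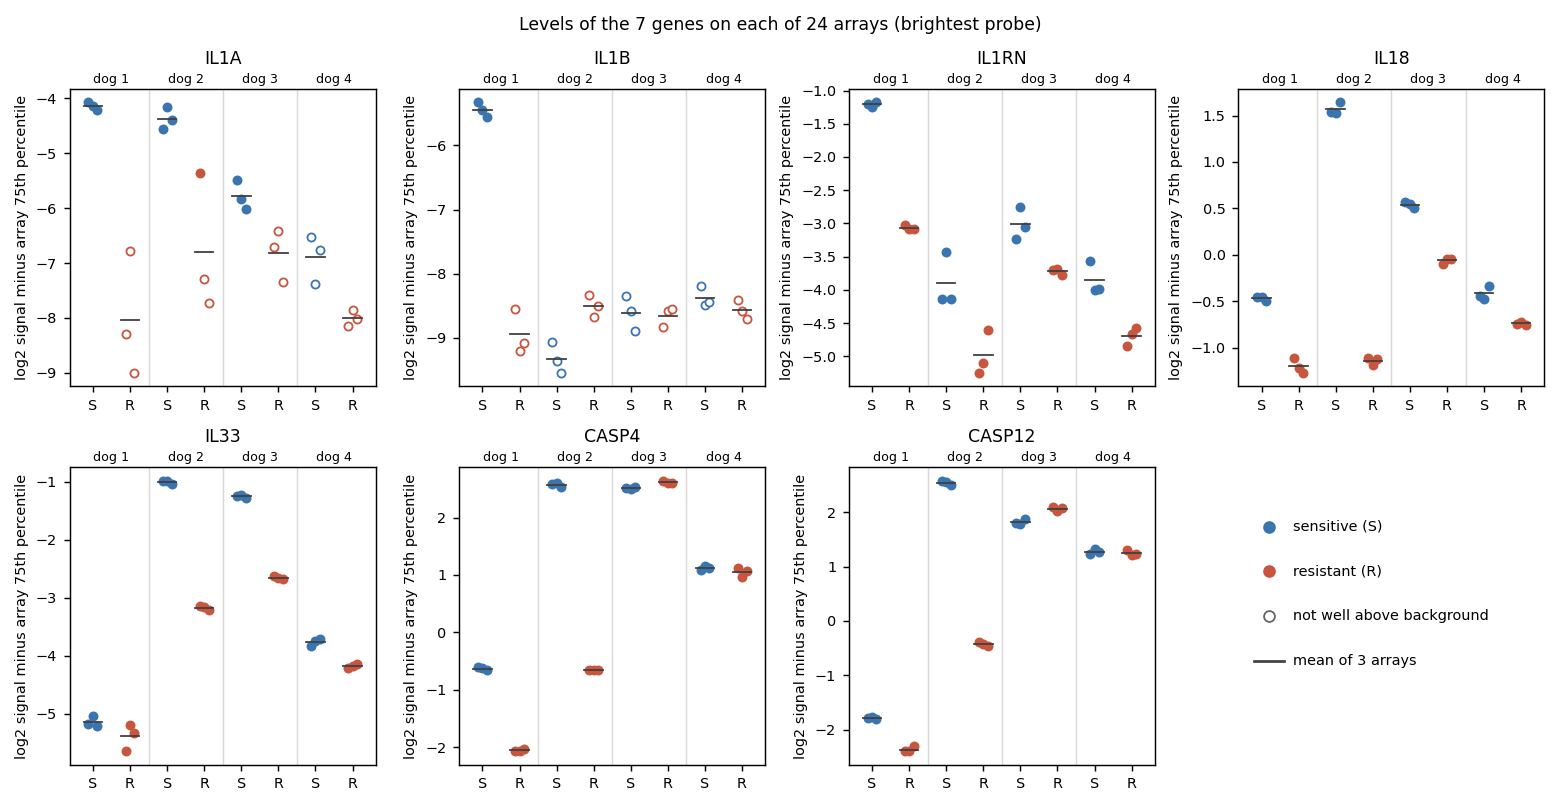
Level of each of the 7 genes on each of the 24 arrays, as log2 signal minus the array's 75th percentile, by dog and phase (S sensitive, R resistant), with the mean of 3 arrays as a line and open points where the spot was not well above background. In dog 2 all 7 genes have separate phases, but IL1B is not well above background in either phase there. IL1A and IL1B are mostly open points. For CASP4 and CASP12 the phases lie within 0.24 of each other in dogs 3 and 4, with wider gaps in dogs 1 and 2.

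The study asked how expression differs between the drug-sensitive and the drug-resistant phase, and within single dogs the members that passed the test all fell. A member was called in a dog where limma's Benjamini-Hochberg adjusted p was under 0.05 and the change at least 2-fold. By that rule IL1RN and CASP4 fell in dog 1, where 8.11% of all genes fell, and IL1A met it too. IL1A passed the filter through sensitive groups alone, which favoured a fall, so its calls in dogs 1 and 2 are given as descriptions. IL1B met the rule in dog 1 too, making 4 of 7, but it passed the filter only through the sensitive phase of that dog. Its direction was thus set by the filter and it supports no count. In dog 2 IL1RN, IL18, IL33, CASP4 and CASP12 fell, where 9.84% of all genes fell. IL1A met the rule there too, making 6 of 7 (all but IL1B), but the filter favoured a fall of IL1A. In dog 3 there was 1 of 7 (IL33), where 5.43% fell, and in dog 4 there were 0 of 7, where 1.5% fell. None rose in any dog, where 3.83%, 3.98%, 1.34% and 4.06% of all genes rose in dogs 1 to 4. The median change of the members, resistant minus sensitive on the log2 scale, was -1.43, -2.42, -0.6 and -0.32 in dogs 1 to 4, beside medians over all genes of -0.06, 0.11, 0.02 and 0.07. Of the 28 gene and dog pairs, 24 had the gene well above background on at least 1 array. Over those pairs alone, with members dim in 1 phase at their bound, the medians were -1.43, -2.56, -0.66 and -0.32. Both dog 1 medians include IL1A and IL1B, and the dog 2 median of -2.42 is the value of IL1A itself, whose dim arrays give bounds alone. Without IL1A and IL1B the middle change in each dog was that of IL18. It was -0.74, -2.71, -0.6 and -0.32 in dogs 1 to 4.

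**Figure D2:**
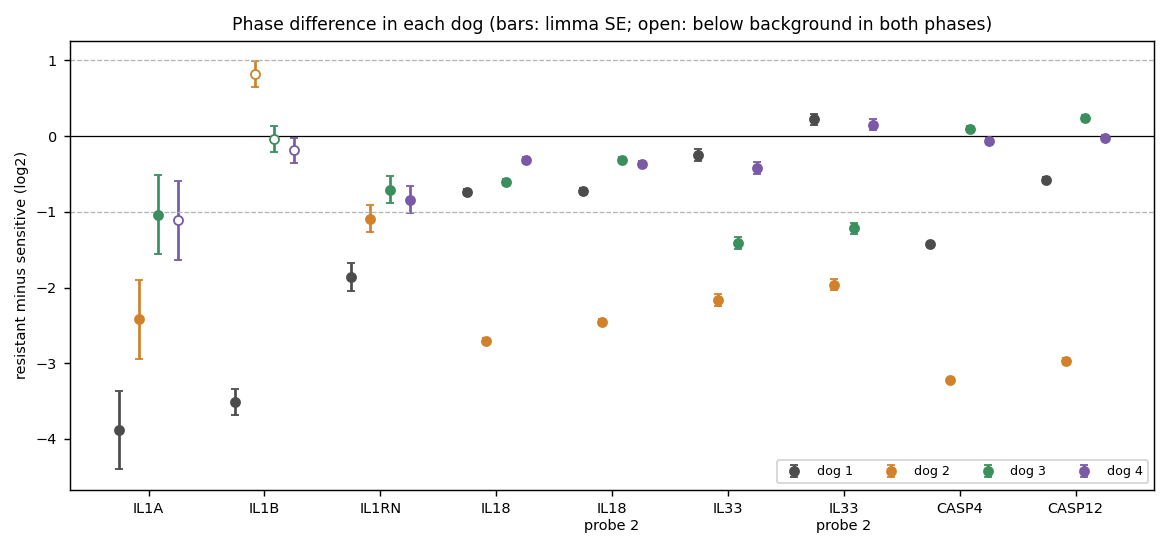
Difference between the phases, resistant minus sensitive on the log2 scale, for each probe in each dog, with limma's standard error and open points where the gene was not well above background in either phase. The dashed lines mark a 2-fold change, and the 11 calls all lie below the lower line. IL1A and IL1B, which hold some of these calls, passed the filter through sensitive groups alone.

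IL1A codes for IL-1 alpha. In dog 1 it lay at -4.08, -4.15 and -4.22 on the sensitive arrays and at -8.3, -6.79 and -9 on the resistant arrays. None of the 3 resistant arrays was well above background there. Such a dim phase gives only a bound, for which the mean of the bright phase was set against the mean over the dim arrays of the higher of 2 signals, the gene's own and the lowest of any probe well above background. IL1A was at least 10.1-fold lower in the resistant phase of dog 1 (limma adjusted p = 4.52e-06).

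In dog 2 IL1A lay at -4.57, -4.16 and -4.39 in the sensitive phase and at -5.36, -7.3 and -7.72 in the resistant phase. Of the resistant arrays only the first was well above background, and the 3 were spread over more than 2 log2 units. The phases did not overlap, and the fitted difference was -2.42 (SE 0.52, limma adjusted p = 0.000542), which is no exact fold because the dim arrays give bounds alone. With dim values raised to the array's floor it was -2.01, and without resistant array 1 it was -3.14.

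In dog 3 the sensitive arrays read -5.49, -5.83 and -6.02 and the resistant arrays -6.7, -6.41 and -7.34, with the resistant phase not well above background. The resistant phase was at least 1.75-fold lower, which did not pass (limma adjusted p = 0.118). In dog 4 none of the 6 arrays was well above background, so no fold is given. IL1A was thus measurable in the sensitive phase of dogs 1, 2 and 3, and otherwise on 1 array alone.

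IL1B, which codes for IL-1 beta, was measurable in 1 group alone, the sensitive phase of dog 1, and passed the filter on dim genes only through it, so its call in that dog is given as a description. There it read -5.33, -5.44 and -5.56, against -8.55, -9.21 and -9.09 on the resistant arrays of that dog. The resistant phase was at least 4.96-fold lower (limma adjusted p = 4.33e-12). On the 18 arrays of dogs 2, 3 and 4 the gene was not well above background, at -8.2 to -9.55, and no fold is given for them. IL1A and IL1B are next to each other in the RefSeq annotation, with 0 genes between them.

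**Figure D3:**
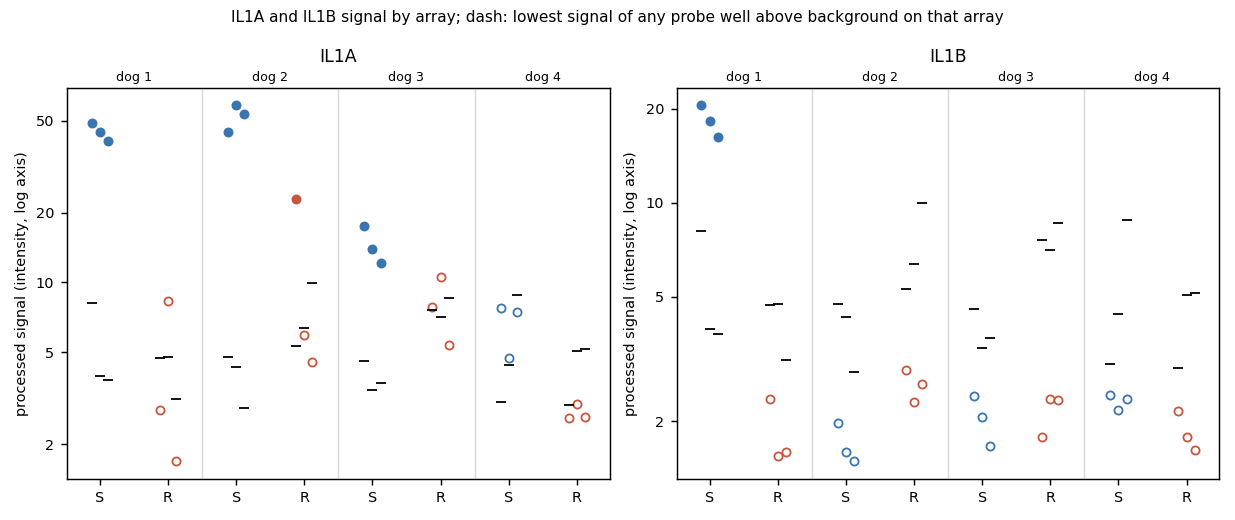
Processed signal of IL1A and IL1B on each array, on a log axis, by dog and phase (S sensitive in blue, R resistant in red), with open points where the spot was not well above background and a dash at the lowest signal of any probe well above background on that array. IL1A reads 40.8 to 48.9 signal units in the sensitive phase of dog 1 and 1.69 to 8.31 in the resistant phase, and IL1B reads 16.2 to 20.5 and then 1.55 to 2.36.

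Both genes were near the lower end of what the array measured. In the sensitive phase of dog 1 the IL1B signal was 16.2 to 20.5 units, where the dimmest probes well above background read 3.8 to 8.13. After normexp (an offset of 50) followed by quantile normalisation, which differ from the setting used here in several steps at once, the dog 1 differences were -0.58 for IL1A and -0.37 for IL1B, and neither reached 2-fold (limma adjusted p = 6.41e-06 and 3.42e-07).

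IL1RN, the gene of the receptor antagonist, was well above background on all 24 arrays and was lower in the resistant phase of each dog with no overlap of arrays. In dog 1 it read -1.2, -1.25 and -1.18 and then -3.03, -3.09 and -3.08. That difference was -1.86 (SE 0.18, 3.62-fold, limma adjusted p = 9.26e-08). The sensitive phase of dog 1 stood above all other groups, at a mean of -1.21 beside -3.01 in the next, the sensitive phase of dog 3.

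In dog 2 IL1RN read -4.14, -3.43 and -4.13 in the sensitive phase and -5.25, -5.1 and -4.61 in the resistant phase. The difference of -1.09 (SE 0.18, 2.12-fold, limma adjusted p = 4.79e-05) lay just past the 2-fold line. It ended as a call when the slide was a block or the comparison was kept within 1 slide (both -0.85), with median scaling or quantile normalisation (both -0.94), without sensitive array 2 (-0.85) and without resistant array 1 (-0.95). In dog 3 the arrays read -3.24, -2.75 and -3.05 and then -3.7, -3.68 and -3.78. In dog 4 they read -3.57, -4 and -3.98 and then -4.85, -4.66 and -4.57. The differences of -0.71 and -0.84 had limma adjusted p of 0.00389 and 0.00106 but were under 2-fold.

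IL18 codes for a cytokine that drives interferon gamma production by T and NK cells. Its largest change was in dog 2, from 1.54, 1.53 and 1.64 to -1.11, -1.18 and -1.12. This was a difference of -2.71 (SE 0.04, 6.56-fold, limma adjusted p = 1.94e-19). The sensitive phase of dog 2 held the highest level of the 8 groups and its resistant phase the second lowest, overlapping only the lowest, the resistant phase of dog 1.

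In dog 1 IL18 read -0.45, -0.45 and -0.5 and then -1.11, -1.22 and -1.27. In dog 3 it read 0.57, 0.55 and 0.5 and then -0.1, -0.04 and -0.04, and in dog 4 -0.44, -0.47 and -0.33 and then -0.74, -0.72 and -0.75. The phases did not overlap in any of these dogs, yet the differences of -0.74, -0.6 and -0.32 were all under 2-fold. The second IL18 probe gave -0.73, -2.46, -0.32 and -0.37 in dogs 1 to 4, and over the 24 arrays both probes had a Pearson r of 0.991.

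IL33 codes for an alarm cytokine stored in the nuclei of stromal and endothelial cells. It fell in dogs 2 and 3. In dog 2 the arrays went from -0.98, -0.99 and -1.04 to -3.14, -3.16 and -3.21 (difference -2.17, SE 0.08, 4.49-fold, limma adjusted p = 2.75e-14). In dog 3 they went from -1.24, -1.23 and -1.27 to -2.63, -2.65 and -2.67 (difference -1.41, SE 0.08, 2.65-fold, limma adjusted p = 4.39e-11). The sensitive phases of these dogs were the highest of the 8 groups and did not overlap. After normexp the dog 3 difference was -0.94, under 2-fold.

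The other two dogs had lower levels and smaller differences. Dog 4 read -3.83, -3.75 and -3.72 and then -4.22, -4.18 and -4.14, a difference of -0.42. Dog 1 read -5.18, -5.04 and -5.21 and then -5.65, -5.19 and -5.33. Its arrays overlapped, and the difference of -0.25 turned to 0.03 after quantile normalisation and to 0.05 after normexp.

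The second IL33 probe had the same calls, at -1.96 in dog 2 and -1.22 in dog 3, but opposite signs elsewhere, at 0.22 in dog 1 and 0.15 in dog 4. Both probes carry the same accession and had a Pearson r of 0.832 over the 24 arrays. The direction of IL33 in dogs 1 and 4 thus depends on the probe.

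CASP4, the probe that also carries the name CASP1, stands for the inflammatory caspases that mature IL-1 beta and IL-18 and cut gasdermin D. It fell in dogs 1 and 2 alone. In dog 2 it went from 2.58, 2.61 and 2.53 to -0.66, -0.65 and -0.65. This difference of -3.22 (SE 0.03, 9.34-fold, limma adjusted p = 8.11e-22) was the largest of any member measured in both phases.

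In dog 1 CASP4 went from -0.61, -0.62 and -0.66 to -2.07, -2.07 and -2.03, a difference of -1.43 (SE 0.03, 2.69-fold, limma adjusted p = 1.59e-16). In dog 3 it read 2.51, 2.5 and 2.54 and then 2.64, 2.6 and 2.61, a difference of 0.1 (limma adjusted p = 0.0229). In dog 4 the phases overlapped, at 1.08, 1.15 and 1.12 and then 1.13, 0.97 and 1.07. Both phases of dog 3 and the sensitive phase of dog 2 held the highest levels of the 8 groups. In that order the sensitive phase of dog 2 overlapped both of its neighbours.

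CASP12 codes for a caspase of the same family that is known for its place at the endoplasmic reticulum. In dog 2 it went from 2.58, 2.55 and 2.51 to -0.39, -0.42 and -0.46, a difference of -2.97 (SE 0.04, 7.84-fold, limma adjusted p = 4.16e-21). In dog 1 it read -1.79, -1.77 and -1.8 and then -2.4, -2.4 and -2.31, a difference of -0.58 that was under 2-fold. Dog 3 read 1.81, 1.79 and 1.87 and then 2.09, 2.03 and 2.08, a difference of 0.24. Dog 4 overlapped, at 1.23, 1.33 and 1.27 and then 1.3, 1.22 and 1.24.

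CASP4 and CASP12 were the members most alike. Their levels had a Pearson r of 0.96 over the 8 group means, which come from 4 dogs and so are not independent. In the RefSeq annotation they are neighbours, with 2 genes between them and 0 of those protein coding. IL18 and IL33 had r = 0.82, IL33 and CASP4 r = 0.83 and IL18 and CASP4 r = 0.79. IL1B and IL1RN had r = 0.74, and IL1B and CASP12 had r = -0.51, although IL1B has a measured level in 1 group alone.

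**Figure D4:**
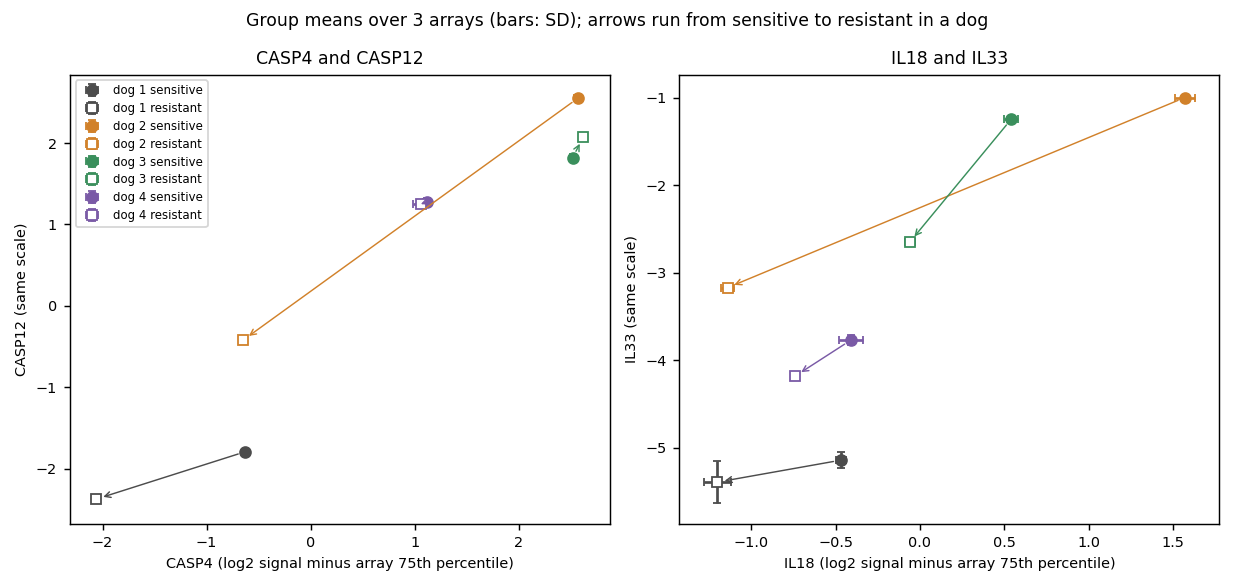
Group means of CASP4 against CASP12 and of IL18 against IL33, as log2 signal minus the array's 75th percentile, with the SD over 3 arrays as bars and an arrow from the sensitive to the resistant phase of each dog. The arrow of dog 2 is the longest in both panels, and for the caspases those of dogs 3 and 4 are short, with differences of 0.24 or less in size.

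Across the dogs, where the animal is the replicate, no member passed. The mean difference was -2.11 for IL1A (SE 0.52, n = 4 dogs), -1.12 for IL1RN (SE 0.23), -1.09 for IL18 (SE 0.43) and -1.06 for IL33 (SE 0.36). These 4 genes were lower in all 4 dogs, as were 7.08% of all genes, and by a mean of at least 2-fold, as were 3% of all genes. For IL1A that count includes dog 4, where it was not well above background, and for IL33 it holds for the brighter probe alone, under the scaling used here. Leaving out 1 dog took 3 of these means under 2-fold. Without dog 2 IL18 was at -0.55 and IL33 at -0.69, without dog 3 IL33 was at -0.94, and without dog 1 IL1RN was at -0.88. The means of CASP4 (-1.15, SE 0.6) and CASP12 (-0.83, SE 0.57) rested on dogs 1 and 2, and without dog 2 they were -0.46 and -0.12. The mean of IL1B (-0.73, SE 0.74) was 0.2 without dog 1.

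Limma with the dog as a block gave adjusted p-values of 0.624 (IL1RN) to 0.889 (IL1B), and 0 of 27721 genes reached 0.05. At an unadjusted p under 0.05 there were 3 of 7 members, namely IL1RN, IL1A and IL33, where 5.78% of all genes had one. The other IL33 probe, with a mean of -0.7, had none, and IL1A passed the filter through sensitive groups alone and was dim in both phases of dog 4. Their limma adjusted p-values were 0.624, 0.688 and 0.801. An exact two-sided sign-flip permutation test gave 0.125 for each gene lower in all 4 dogs, the smallest p that 4 dogs allow. When all 24 arrays entered with the group as a random block, 4 members passed, as did 6.23% of all genes. Limma adjusted p was then 0.0414 for IL1RN, 0.00395 for IL18, 0.00392 for IL33 and 0.0236 for CASP4. These p-values rest on arrays, which may be technical, and not on the animal as the replicate.

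The size of the change differed between dogs. The dog-by-phase interaction passed (limma F-test) for the 6 members other than IL1B, as it did for 78.8% of all genes, so a pass is not particular to these genes. The pass of IL1A rests in part on background values, since its resistant arrays were mostly dim. IL1B passed as well, but with 1 measured group its test compares that group with background values and is not counted. For IL18 the change in dog 1 minus that in dog 2 was 1.98 (SE 0.06, limma adjusted p = 5.63e-15). The change in dog 2 minus that in dog 3 was -2.12 (adjusted p = 2.62e-15), and minus that in dog 4 it was -2.39 (adjusted p = 5e-16). For IL1RN the changes in dogs 2, 3 and 4 were closer, and their differences of -0.38 (dog 2 minus dog 3), -0.24 (dog 2 minus dog 4) and 0.14 (dog 3 minus dog 4) had SE 0.26 each and limma adjusted p of 0.246 to 0.701. For CASP4 the change in dog 3 exceeded that in dog 4 by 0.16 (SE 0.05, limma adjusted p = 0.0101). Between pairs of dogs, the change differed (limma adjusted p under 0.05) for 5, 5 and 5 of the 6 members other than IL1B for dog 1 against dogs 2, 3 and 4, where 60.1%, 52.4% and 54.7% of all genes differed. It differed for 4 and 4 for dog 2 against dogs 3 and 4 (50.4% and 54.5% of all genes) and for 4 for dog 3 against dog 4 (43.6%). For IL1A these counts include dog 4, where it was dim in both phases. The arrays of both phases were apart for 6, 7, 6 and 4 of 7 members in dogs 1 to 4, as they were for 62.2%, 68.7%, 54.6% and 56.4% of all genes. These counts include IL1B in dog 1, where the filter set its direction. They also include IL1B in dog 2 and IL1A in dog 4, which were not well above background in either phase.

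Few other genes of the pathway could be read, since few accessions on the array matched a symbol. Of 9 IL-1 family receptors and decoys 1 was on the array, IL18BP, the soluble protein that binds and blocks IL-18. It fell by 1.62 on the log2 scale in dog 3 (SE 0.03, limma adjusted p = 5.41e-17) and differed by 0.5, -0.97 and 0.12 in dogs 1, 2 and 4, under 2-fold. Of 15 inflammasome genes 1 was on the array, P2RX7, the ATP-gated channel that sets off inflammasome assembly. It fell by 1.61 in dog 2 (SE 0.15, limma adjusted p = 4.02e-08) and differed by 0.67, -0.02 and 0.2 in dogs 1, 3 and 4. After normexp its dog 2 difference was -0.89, under 2-fold. The signalling genes NFKB1 and MAPK14 (2 of 23) and the caspases CASP8 and CASP9 of cell death (2 of 8) were not called in any dog, with differences between -0.48 and 0.35. None of the 6 other ligands of the family had a named probe.

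NF-kB and IL-1 target genes gave 11 measured of 20 listed. In dogs 1 to 4 there were 4, 5, 2 and 1 that fell and 0, 1, 1 and 2 that rose, and the list's median was -0.66, -1.45, -0.12 and 0.34. With normexp the counts were 2, 4, 1 and 0 that fell and none that rose. The dog 2 counts of falls include IFNG, which passed the filter only through the sensitive phase of that dog. PTGS2, the inducible cyclooxygenase, fell by 3.93 in dog 1 (SE 0.15, limma adjusted p = 1.72e-13), where 2 of 3 resistant arrays were well above background. It was lower in dog 2 by at least 2.78-fold, but higher in dog 4 by at least 2.07-fold. The dog 2 and dog 4 calls of PTGS2 ended after normexp (-0.22 and 0.12). CCL20, a chemokine for dendritic cells and lymphocytes, fell by 4.68 in dog 3 (SE 0.06, adjusted p = 1.75e-19) and rose by 1.25 in dog 4 (0.83 after normexp, under 2-fold).

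IFNG, the gene of interferon gamma that IL-18 is known to induce, was at least 19.2-fold lower in the resistant phase of dog 2 (limma adjusted p = 1.25e-10) and was not well above background in dogs 1, 3 and 4. It passed the filter only through the sensitive phase of dog 2. The direction of that call was thus set by the filter, and it is given as a description. CCL2, a monocyte chemokine, fell by 3.67 in dog 1 with a wide error (SE 1.3, adjusted p = 0.0241). Its differences of -3.03, 2.32 and -1.45 in the other dogs did not pass, though that of dog 2 did after normexp (-2.97). F3, which codes for tissue factor, was the 1 listed target that fell in all 4 dogs, with differences of -2.76, -3.09, -1.93 and -1.65. In dogs 1 and 4 only 1 of 3 resistant arrays of F3 was well above background, so those values are no exact folds. After normexp only its dog 2 call remained (-1.56), with -0.57, -0.9 and -0.47 in dogs 1, 3 and 4, and with the authors' value table the dog 4 call ended (-0.54). IL6, an inflammatory cytokine, rose in dog 2 (1.86; of its sensitive arrays 1 of 3 was above background) and was at least 4.39-fold higher in the resistant phase of dog 3, and both calls ended after normexp (0.36 and 0.44). F3 and IL6 were chosen for mention after their values were seen.

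**Figure D5:**
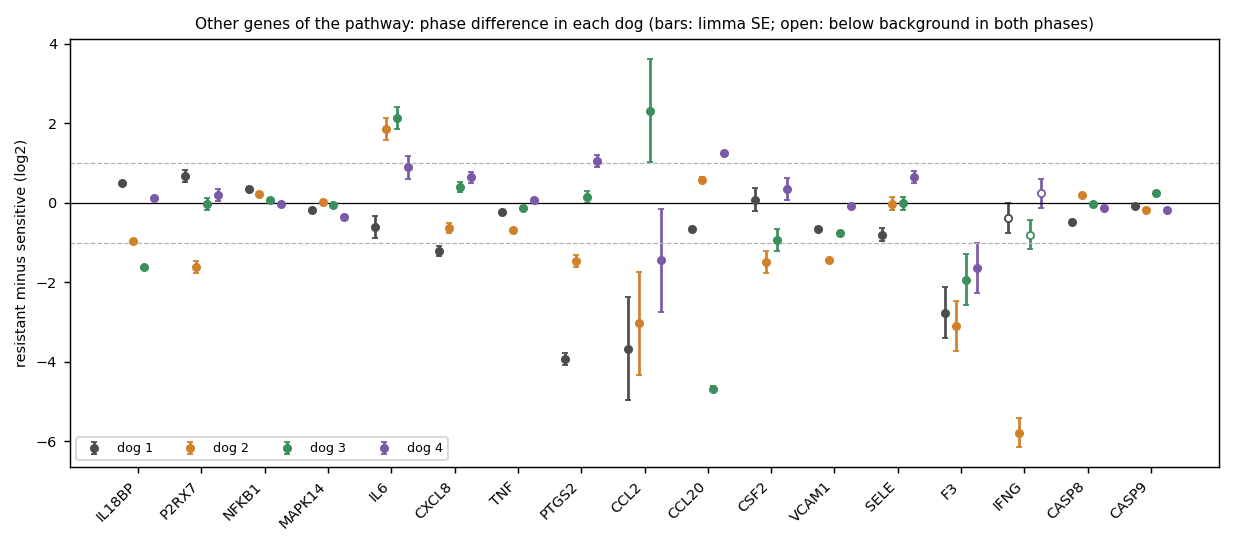
Difference between the phases, resistant minus sensitive on the log2 scale, for the 17 other pathway genes measured, in each dog, with limma's standard error and open points where the gene was not well above background in either phase. IL18BP is lowest in dog 3 (-1.62), P2RX7 in dog 2 (-1.61) and CCL20 in dog 3 (-4.68), so the low dog differs from gene to gene.

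Markers of the non-malignant cells differed between the phases in dogs 1 to 3, not always in the direction of the 7 genes. Sums are of signal over each array's 75th percentile. The 5 measured T-cell markers of 9 listed (CD4, CD8A, CD28, CTLA4 and ICOS) all fell in dog 2. Their sum went from 4.41 to 4.65 on the sensitive arrays to 0.273 to 0.284 on the resistant arrays, with CD28 and ICOS not well above background there. Of these markers 3 fell in dog 1, 3 in dog 3 and 0 in dog 4. KLRD1, the 1 measured NK-cell marker of 6, fell in dogs 1 to 3, with a difference of -6.42 in dog 2 (2 of 3 resistant arrays well above background). After normexp it fell in dog 2 alone (-0.7 in dog 1 and -0.81 in dog 3). The 6 members other than IL1B also fell in dog 2 (IL1A as a description only), and their relation to these markers was not tested.

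Of 13 monocyte and macrophage markers 5 were measured, and 2, 1, 3 and 0 fell in dogs 1 to 4 while 0, 1, 0 and 0 rose. Their sums were 6.96 to 7.13 and then 5.01 to 5.22 in dog 1, 12.3 to 13.3 and then 8.14 to 8.63 in dog 2, 4.98 to 4.99 and then 1.86 to 1.89 in dog 3, and 1.7 to 1.71 and then 1.72 to 1.79 in dog 4. C5AR1, a complement receptor of myeloid cells, fell in dogs 1 and 2 (differences -4.93 and -2.18), with 2 of 3 resistant arrays of dog 1 well above background. The scavenger receptor gene CD163 and the metal transporter gene SLC11A1 were not called there, at 0.53 and 0.54 in dog 1 and -0.74 and -0.59 in dog 2, and both fell in dog 3 (-1.33 and -2.45). FCGR1A, an Fc receptor of monocytes, fell by 3.67 in dog 1 and rose by 1.62 in dog 2. Both dendritic-cell markers measured of 6 listed gave no common direction. FLT3 fell in dogs 1 and 3 (-1.09 and -1.37), CD1C rose in dog 3 (1.11), and their sum was 0.143 to 0.346 over all groups.

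Of 10 neutrophil markers 4 were measured (CAMP, MMP9, CXCR2 and ELANE). In dogs 1 to 4 there were 3, 0, 3 and 0 that fell and 1, 2, 0 and 0 that rose. Their sum went from 2.16 to 2.35 down to 0.239 to 0.296 in dog 1, from 0.0922 to 0.144 up to 1.09 to 1.13 in dog 2, and from 3.17 to 3.33 down to 0.121 to 0.159 in dog 3. In dog 4 it was 0.48 to 0.591 and then 0.429 to 0.449. In dog 2 CAMP and MMP9 rose (4.49 and 2.52), and CXCR2 and ELANE were not called (1.05 and 0.08). In the sensitive phase CAMP (1.46 beside 0.56) and ELANE (-3.5 beside -6.73) were higher in dog 3 than in dog 1. MMP9 (-1.4 beside -0.57) and CXCR2 (-4.98 beside -3.66) were lower in dog 3. How these markers relate to IL1A, IL1B and IL1RN was not tested.

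Stromal and endothelial markers (6 of 9 measured) gave 3, 4, 4 and 1 that fell in dogs 1 to 4 and none that rose. Their sums went from 4.35 to 4.44 to 2.35 to 2.38 in dog 1, from 9.03 to 9.25 to 4.58 to 4.93 in dog 2, from 13.6 to 14 to 6.06 to 6.39 in dog 3, and from 7.03 to 7.36 to 6.11 to 6.28 in dog 4. The markers of the list did not move alike. COL1A2, a collagen gene, had differences of -3.13, -1.57, -1.4 and -0.55 in dogs 1 to 4. PDGFRB and VWF were called in no dog, with differences between -0.41 and 0.25. After normexp, 1, 4, 0 and 0 T-cell markers and 2, 1, 3 and 1 stromal markers fell in dogs 1 to 4. In the setting used here, the markers that fell in dog 3 were 3 of 5 for T cells, 3 of 4 for neutrophils and 3 of 5 for macrophages. For stroma they were 4 of 6, and KLRD1 fell as well. CD4 (0.13), CD8A (-0.23), CXCR2 (-0.01) and C5AR1 (-0.04) were among those not called there. The 2 B-cell markers measured of 10 gave sums of 54.7 to 56.4 and then 62.9 to 67 in dog 1. In dog 2 they were 73.7 to 77.8 and then 78.2 to 82.8, and in dog 3 59.7 to 61 and then 67.8 to 72.2. In dog 4 they were 61.3 to 63.8 and then 60.6 to 62.2. The part of any of these cell types in the differences of the 7 genes was not tested.

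By the fixed rule, the 3 named genes whose levels were most like each member over the 8 group means were taken from 712 others. The level of IL18 was most like CD38 (r = 0.973), a surface enzyme of lymphoid and myeloid cells, FCER1G (r = 0.968), a signalling chain of Fc receptors, and MITF (r = 0.962), a transcription factor. For IL33 they were VNN1 (r = 0.971), the class II gene DLA-DQB1 (r = 0.96) and the matrix gene BGN (r = 0.946). For CASP4 they were SULF1 (r = 0.921), CD40LG (r = 0.903) and CD52 (r = 0.897), and for CASP12 FN3KRP (r = 0.907), SULF1 (r = 0.904) and the class II gene DLA-DRA (r = 0.882). SULF1 stood in both caspase lists. For IL1RN they were SELENOP (r = 0.891), GLUL (r = 0.884) and P2RY12 (r = 0.848). For IL1A they were TACR1 (r = 0.944), SERPINA1 (r = 0.909) and GP1BA (r = 0.889), and for IL1B CCL1 (r = 0.994), TSHB (r = 0.993) and ANGPTL1 (r = 0.904). With 8 points from 4 dogs, and for IL1B with 1 measured group, these are descriptions of order.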

How the data were processed

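The deposited scanner files give spot intensity read by Agilent Feature Extraction 10.7.3.1 (per the submitters' processing notes and the file headers), which had been background-subtracted and detrended within each array. The authors' value table equalled the raw median intensity of the spots (largest difference 0). No genome build is given in the sources used here.

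Control spots (1417 of 45220) and outlier spots were left out, and log2 of the processed signal was scaled to each array's 75th percentile. The brightest probe stood for a gene. RefSeq names (assembly UU_Cfam_GSD_1.0, used for names and neighbours) matched 832 of 35908 identifiers. Limma 3.58.1 in R 4.3.3 was fitted to all 27721 genes. Across dogs it used the mean of each group, with the dog as block, since both phases come from 1 animal. Within dogs it used 24 arrays in 8 groups with 1 spread per gene. P-values are two-sided and Benjamini-Hochberg adjusted.

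The members, gene lists and tests were chosen with earlier results of these data known. All members were named, with the 4 genes of widest range per pathway list (more from short lists, and others where they are said to be chosen later) and the 3 genes most like each member. Marker genes were named to describe their lists.

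Alternatives were other scalings, normexp (offset 50, on the median signal because the mean was not among the columns used), the authors' value table, other filters and probe rules, slide and replicate blocks, and leaving out arrays or dogs. Raising dim values to the array's floor was added after seeing the data. In simulated data of 27721 genes the test across dogs recovered 34.5%, 68% and 85.5% of log2 changes of 1, 2 and 3 (21 false calls), that within dog 1 34.5%, 88% and 95.5% (5 false calls) and the interaction test 64%, 81% and 87.5% (16 false calls). Within dog 1 a call also needed an estimated change of at least 2-fold, which by itself limits recovery of a true log2 change of 1. The simulated noise was normal without a background floor, unlike that of the dim members.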

Additional observations from a re-analysis of the deposited data

Results flagged for a closer look

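The phase difference differed between the dogs by limma's F-test of the dog-by-phase interaction with Benjamini-Hochberg adjustment over all genes. The adjusted p was 0.00546 for IL1A, 0.00269 for IL1RN, 5.69e-16 for IL18, 4.33e-11 for IL33, 1.61e-19 for CASP4 and 6.21e-19 for CASP12. The test also passed for 78.8% of all genes. Its error is the spread between arrays of 1 dog and phase, which may be technical. The changes ran from -3.88 to -1.04 for IL1A, from -1.86 to -0.71 for IL1RN, from -2.71 to -0.32 for IL18, from -2.17 to -0.25 for IL33, from -3.22 to 0.1 for CASP4 and from -2.97 to 0.24 for CASP12. For IL1A 0, 1, 0 and 0 of 3 resistant arrays were well above background in dogs 1 to 4, and dog 4 was dim in both phases. Its p-value and changes thus rest in part on background values and are no exact folds. IL1B had an adjusted p of 7.28e-11, but it entered the test only through the sensitive phase of dog 1 and was not well above background in the other 7 groups, so its value is not counted.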

How the results depend on the processing

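The calls of IL18, IL33, CASP4 and CASP12 in dog 2 and of CASP4 and IL1RN in dog 1 held under all alternatives run for them. Counts in this section include IL1A and IL1B where they were tested, although both passed the filter through sensitive groups alone. Members called in dog 1 numbered 4, but 2 after normexp with quantile normalisation (3.06% of all genes), 3 with the authors' value table (4.66%) and 2 where a probe had to be well above background on all 24 arrays, which leaves 5 members (7.3% of the 21026 genes left). Dog 2 had 6, but 4 after normexp (5.58%) and with the value table (7.76%), and 5 with median scaling, quantile normalisation, the all-array filter and each slide term. Dog 3 had 1 and, after normexp, 0 (2.11%). Dog 4 had 0 and, after quantile normalisation, 1 (IL1RN, -1.01; 5.06%). Across dogs there were 0, and 4 with the group as a random block over 24 arrays (6.23%), where the animal is not the replicate. Without the dog term there were 0. Dog 1's IL33 difference turned to 0.03 after quantile normalisation and 0.05 after normexp, and the mean of IL1B, which ran from -1.25 to 0.2 with 1 dog left out, to 0.2 without dog 1.

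Calls that ended were those of IL1A in dogs 1 and 2 (-0.58 and -0.52), IL1B in dog 1 (-0.37) and IL33 in dog 3 (-0.94) after normexp, IL1A in dog 2 and IL1B in dog 1 with the authors' value table (-0.82 and -0.74), and IL1RN in dog 2 with 9 alternatives, down to -0.28 after normexp. The cause was not tested. Leaving out 1 array gave 4 calls in dog 1 (IL1B among them), 5 to 6 in dog 2, 1 in dog 3 and 0 in dog 4. Leaving out 1 dog gave 0 across dogs and 5 to 7 interactions (IL1B was among the members tested), with 5 without dog 1, where 66.5% of all genes passed. Of the alternative values of single members 522 kept direction and side of the threshold, 15 lost a call, 5 gained one and 3 turned.

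Same-numbered arrays of both phases did not deviate together (correlations -0.13 to 0.09, over 0.1 in 0 of 12 pairs), so the numbers do not pair arrays. With the replicate number as a block the counts were 4, 6, 1 and 0, and the difference of CASP4 in dog 2 was -3.22. Median scaling moved the median of all genes to 0.12, 0.26, 0.11 and 0.01 in dogs 1 to 4. The slide could not be fitted as a fixed block in dog 4. As a random block it gave 0 calls there, with IL1RN at -0.84. Signal over background limits IL1A, well above it on 10 of 24 arrays, and IL1B, on 3.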
